A study of Homo sapiens with 2 samples.

Results

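The very wide open regions of CAMA-1 cells were stretches of chromatin called as a single accessible interval of at least 4000 bp in each of 2 ATAC-seq replicates. They were chosen by peak width alone: overlapping intervals of the replicates were merged, and a merged region on chromosomes 1 to 22 was kept when the widest interval of each replicate reached that length. The rule selected 255 of 209570 shared autosomal regions, or 0.122%, from 215195 shared regions on all chromosomes. ATAC-seq uses the Tn5 transposase to insert adapters where DNA is not covered by nucleosomes, so that the number of fragments at a place reports how open it is. CAMA-1 is an established luminal breast cancer line labelled as epithelial, and the libraries were biological replicates of untreated cells grown as adherent cultures in DMEM with serum. No second condition was sampled, so that groups could not be compared. The replicates held 245736 and 259745 peaks with median widths of 297 and 300 bp. A shared peak lay over a start of all 12 epithelial keratin and junction genes and 15 of 16 autosomal luminal transcription factors examined, against 3 of 12 blood cell markers and 2 of 6 endothelial markers. Of 12 basal and mesenchymal markers 9 were also open at a start. Among all 19111 autosomal protein-coding genes, 14046 (73.5%) had a start in a shared region, a share close to that of the basal and mesenchymal markers.

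Most accessible sites in mammalian chromatin are nucleosome-free gaps at a promoter or enhancer, flanked by positioned nucleosomes. Promoters of widely used genes often lie in CpG islands, which are stretches rich in G and C that keep their CpG dinucleotides because these stay unmethylated. Long runs of accessibility can arise when many adjacent sites are open together, as in clusters of enhancers, or when RNA polymerase travels densely through a short and very active gene.

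Sequences of the widest regions are shown because CpG content varied among them, both between gene starts and between regions with and without a start. For the 6 widest regions with a protein-coding transcription start site (TSS), the 150 bases given are those nearest upstream of the MANE Select start, the start of the transcript chosen to represent a gene, that overlap no annotated exon. Bases run from upstream to downstream on the strand of the gene, come from the hg38 genome, and carry each CpG dinucleotide in capitals.
TPM4, chr19:16074142-16074291, plus strand: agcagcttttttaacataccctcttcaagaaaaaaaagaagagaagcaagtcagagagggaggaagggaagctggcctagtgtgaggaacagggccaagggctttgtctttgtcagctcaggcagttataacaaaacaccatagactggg
LMNA, chr1:156114520-156114669, plus strand: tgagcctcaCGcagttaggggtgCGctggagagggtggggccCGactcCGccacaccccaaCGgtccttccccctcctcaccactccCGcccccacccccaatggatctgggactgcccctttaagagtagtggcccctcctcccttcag
SLC7A5, chr16:87869508-87869657, minus strand: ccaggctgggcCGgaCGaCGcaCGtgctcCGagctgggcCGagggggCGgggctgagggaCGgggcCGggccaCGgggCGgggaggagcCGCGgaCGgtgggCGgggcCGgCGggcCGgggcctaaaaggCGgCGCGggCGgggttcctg
CCND1, chr11:69641006-69641155, plus strand: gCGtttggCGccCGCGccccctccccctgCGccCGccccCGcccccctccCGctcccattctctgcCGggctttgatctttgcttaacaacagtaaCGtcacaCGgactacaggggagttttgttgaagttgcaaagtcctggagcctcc
MAFK, chr7:1530552-1530701, plus strand: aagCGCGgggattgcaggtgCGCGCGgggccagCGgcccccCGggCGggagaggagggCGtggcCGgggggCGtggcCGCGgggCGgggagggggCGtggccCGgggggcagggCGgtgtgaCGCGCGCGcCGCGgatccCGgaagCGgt
MYH9, chr22:36388011-36388160, minus strand: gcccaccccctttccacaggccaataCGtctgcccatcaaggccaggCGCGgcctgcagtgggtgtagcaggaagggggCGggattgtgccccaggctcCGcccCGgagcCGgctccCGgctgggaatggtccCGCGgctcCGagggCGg
MAFK carried 25 CpG dinucleotides in its stretch and SLC7A5 carried 22. MYH9 held 12, CCND1 held 11 and LMNA held 6. The TPM4 stretch, which began 2204 bp upstream of the start because exons of longer transcripts filled the space between, held 0.

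For 3 of the 6 widest regions that overlapped no TSS of any gene, 150 exon-free bases nearest the midpoint are given on the plus strand, with CpG again in capitals.
upstream of CCND1, chr11:69514074-69514223, plus strand: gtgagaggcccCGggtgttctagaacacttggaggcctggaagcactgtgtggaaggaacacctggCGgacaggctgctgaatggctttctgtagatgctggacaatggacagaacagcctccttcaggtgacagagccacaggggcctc
within CFL1, chr11:65850905-65851054, plus strand: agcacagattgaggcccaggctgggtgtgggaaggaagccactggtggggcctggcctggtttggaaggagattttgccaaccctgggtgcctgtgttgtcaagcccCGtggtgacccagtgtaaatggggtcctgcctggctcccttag
within QSOX1, chr1:180169087-180169236, plus strand: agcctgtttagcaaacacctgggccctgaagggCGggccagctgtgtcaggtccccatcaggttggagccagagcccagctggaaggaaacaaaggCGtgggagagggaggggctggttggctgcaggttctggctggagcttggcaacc
These stretches held 2, 1 and 2 CpG dinucleotides. Their observed to expected CpG ratios, the count of CpG divided by that expected from the C and G present, were 0.163, 0.0758 and 0.144. Upstream of the gene starts the ratio was 1.08 for MAFK, 0.958 for SLC7A5, 0.786 for CCND1, 0.606 for MYH9, 0.386 for LMNA and 0 for TPM4, so that 5 of the 6 were above and TPM4 below the stretches from regions with no TSS.

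Widths, on which the regions were selected, are given as a description. The widest interval of a region had a median of 5636 bp in replicate 1 and 5587 bp in replicate 2, with ranges of 4009 to 28606 bp and 4008 to 43448 bp. In 20 regions the interval exceeded 10000 bp in both replicates, and in 109 the smaller of the pair was under 5000 bp. The difference between replicates had a median of 3.16% of the width and was under 5% in 146 regions, but it exceeded 25% in 40. A single interval spanned the region in both replicates in 144 cases, whereas the other 111 were broken into several intervals in at least 1 replicate. In 6 regions, among them MYH9, KRT7, SDC1, ZC3H12A and a region in PDLIM7, the widest intervals of the replicates overlapped by less than 50% of the longer of them. Just inside the limit were a stretch 6594 bp from the nearest start of CDH1 (4013 and 4008 bp), KREMEN2 (4009 and 4008 bp) and TYMP (4030 and 4010 bp). Just outside were RUSC1 (4001 and 3999 bp), a stretch near FTO (3987 and 4175 bp) and one near GDPD5 (4037 and 3986 bp). A further 96 shared regions reached the limit in replicate 1 only, with a median of 3015 bp in replicate 2, and 89 reached it in replicate 2 only.

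**Figure D1:**
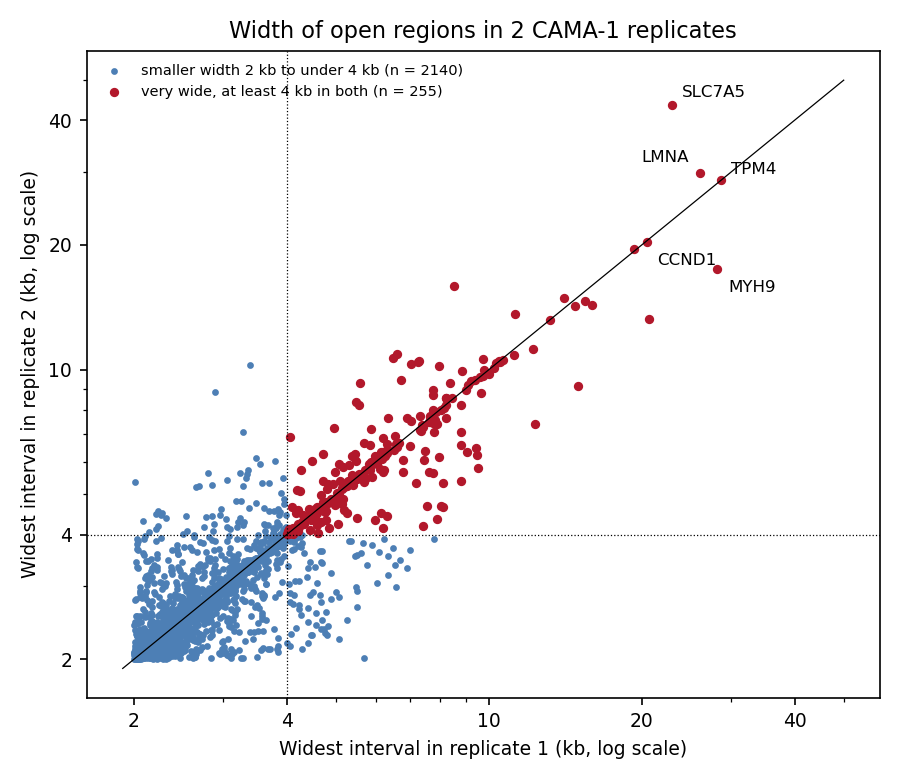
Width of the widest interval in replicate 1 (horizontal) and replicate 2 (vertical), in kb on log axes, for the 255 very wide regions (red) and the 2140 shared regions whose smaller width was 2000 to 3999 bp (blue); dotted lines mark 4 kb and the diagonal marks equal width. Most very wide regions lie close to the diagonal, while SLC7A5 (22927 and 43448 bp) and MYH9 (28203 and 17468 bp) lie away from it.

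The widest regions covered whole genes or long parts of them. TPM4, which encodes an actin-binding tropomyosin, had the longest smaller width, with intervals of 28606 and 28711 bp in replicates 1 and 2. LMNA, encoding the nuclear lamins A and C, had intervals of 26066 and 29916 bp. SLC7A5, encoding a transporter of large neutral amino acids, had intervals of 22927 and 43448 bp. The SLC7A5 region was a single interval in replicate 2 and 4 intervals in replicate 1, so that its width depended on the library. CCND1, encoding cyclin D1, a driver of the passage from G1 into S phase, was spanned by 1 interval in each replicate, of 20492 and 20295 bp. MAFK, encoding a small Maf transcription factor, had intervals of 19336 and 19602 bp. MYH9, encoding a nonmuscle myosin heavy chain, had intervals of 28203 and 17468 bp that lay over different parts of the gene.

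The next widest promoter regions lay over EPPK1 (15452 and 14626 bp), which encodes the cytoskeletal linker epiplakin, and DGAT1 (15937 and 14289 bp), which encodes an enzyme of triglyceride synthesis. Then followed EFNA1 (14799 and 14251 bp), encoding an ephrin ligand, NR4A1 (14055 and 14869 bp), encoding an orphan nuclear receptor, CSRP1 (20673 and 13222 bp), encoding a LIM-domain protein, and MAMDC4 (13171 and 13176 bp). All but CSRP1 among these 6 were of similar width in the replicates, whereas CSRP1 was much wider in replicate 1.

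A start of a protein-coding gene lay in 184 of the 255 regions, or 72.2%, when every annotated transcript start was counted. The share was 63.2% of the 2140 shared regions with a smaller width of 2000 to 3999 bp, hereafter wide regions, and 7.92% of the 207175 narrower regions. A longer region can hold more starts by its length alone, and the count depends on the annotation. With the single MANE Select start of each gene, 133 very wide regions (52.2%) held a start, against 51.0% of wide and 4.92% of narrower regions, so that very wide and wide regions differed little by this count. The midpoint of a very wide region was within 1 kb of a protein-coding start in 43.9% of cases, below the 58.5% of wide regions and above the 12.8% of narrower regions. Of the 184 regions with any start, 51 held no MANE Select start, and 43 of these lay downstream of the main start of the gene that named them, at a median of 8361 bp.

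The regions extended into the gene more often than away from it. Among the 133 with a MANE Select start, the region reached a median of 2023 bp upstream and 4061 bp downstream of that start, and 97 of them (72.9%) reached farther downstream. The corresponding shares were 61.1% of wide and 53.2% of narrower regions with such a start. The representative transcripts of these genes were short, with a median span of 6581 bp against 23573 bp for wide regions and 29213 bp for narrower ones, and 56 of the 133 transcripts (42.1%) lay wholly inside the region. Of all 255 regions, 53 (20.8%) contained at least 1 complete protein-coding gene, for 59 genes in all, whereas 48 of the 2140 wide regions (2.24%) did. Containment was counted in the merged region, and a longer region can contain more by its length alone. The merged region had a median of 6256 bp in the very wide class and 2660 bp in the wide class. Width was the measure of selection, so the shares of contained genes and transcripts are given as a description. The complete genes included CCND1, MAFK, KRT18, EFNA1, FOSB, JUND, KLF2, TRAF4 and DUSP1. Summed over the regions, 72.4% of the bases were in protein-coding genes, 28.7% in exons and 43.6% in introns.

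**Figure D2:**
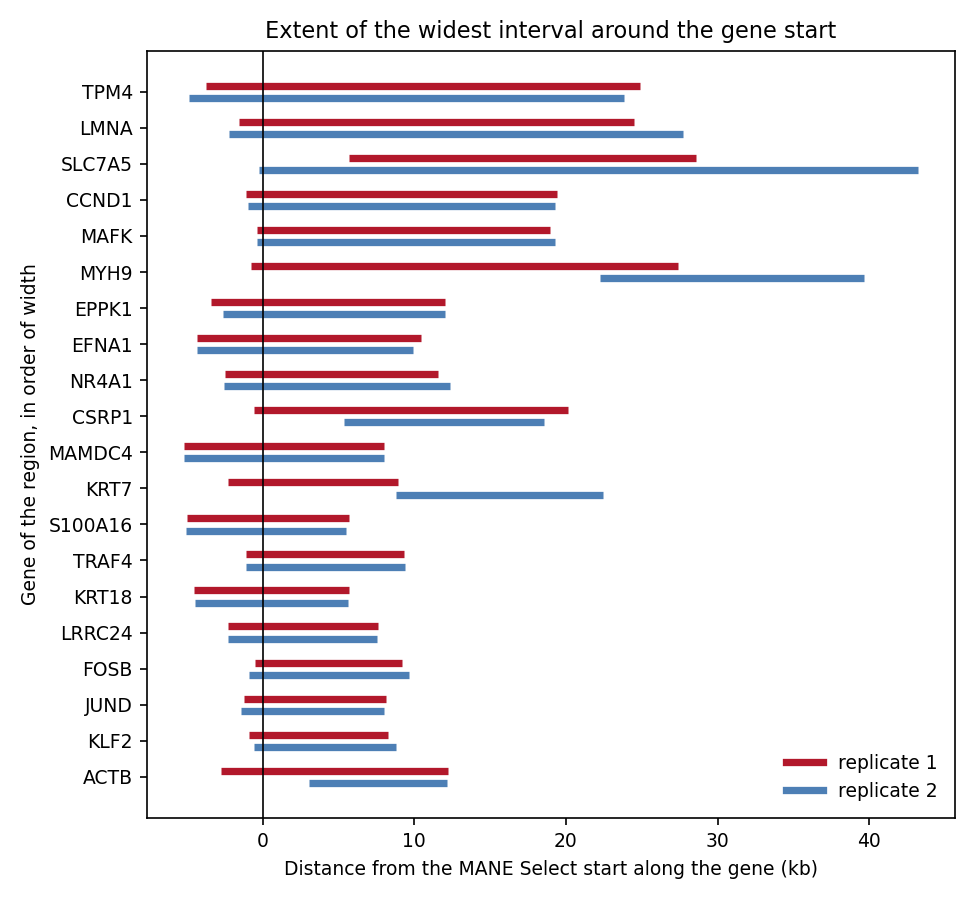
Extent of the widest interval of each replicate (red, replicate 1; blue, replicate 2) around the MANE Select start (0), in kb along the direction of transcription, for the 20 widest regions that held such a start, ordered from the widest. Most bars reach farther to the right, into the gene. The bars of MYH9, KRT7, CSRP1, SLC7A5 and ACTB differ in position between replicates.

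More than 1 protein-coding gene started in 57 of the 184 promoter regions (31.0%), against 15.9% of wide and 9.95% of narrower promoter regions. Starts on both strands were present in 35. With MANE Select starts alone, 24 of 133 (18.0%) held more than 1 gene, against 11.4% of wide and 7.49% of narrower regions. Longer regions can hold more genes by length alone, and width was the measure of selection. Promoter regions had median widths of 6669 bp, 2666 bp for wide and 957 bp for narrower ones, so both contrasts are given as a description. A histone gene stretch on chromosome 1 (4823 and 5302 bp) contained all of H2BC21, H2AC20 and H2AC21, which encode core histones H2A and H2B. The region over BGLAP and PAQR6 (7776 and 7999 bp) contained both genes.

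The 235 protein-coding genes with a start in a very wide region were 1.23% of the 19111 on the autosomes and 1.67% of the 14046 with a start in any shared region. Immediate-early genes, which are transcribed within minutes of a growth or stress signal, held 10 of 20. They were FOS, FOSB, JUN and JUND, which encode AP-1 subunits, EGR1, KLF6, MYC and NR4A1, which encode other transcription factors, IER2, and DUSP1, a phosphatase that switches MAP kinases off. The FOS region was 7756 and 7800 bp wide, FOSB 9718 and 10583 bp, JUN 4623 and 4611 bp, and EGR1 5551 and 8195 bp. The replicates agreed closely for FOS and JUN, and EGR1 was wider in replicate 2. By the MANE Select start the count was 9 of 20, beside 0.880% of all genes with such a start, and KLF6 was the gene lost.

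Epithelial keratin and junction genes held 7 of 12. KRT7, a keratin of simple epithelia, lay in a region with intervals of 11250 and 13665 bp, and these touched over less than 1% of the longer of them. KRT18 lay whole in a region of 10225 and 10078 bp, which also held upstream starts of the neighbouring and oppositely transcribed KRT8. A second region over the body of KRT8, its partner keratin, was 8215 and 8522 bp wide. KRT19 (7891 and 4353 bp), the tight junction gene CLDN4 (5296 and 5285 bp), the epithelial splicing regulator ESRP1 (4663 and 4295 bp) and the mucin gene MUC1 (7653 and 7748 bp) completed the list. The region counted for KRT19 was named by the keratin gene KRT15, whose MANE Select start it held. It held an annotated start of KRT19, but the MANE Select start of KRT19 lay outside it. By the MANE Select start 4 of the 11 genes with one remained, namely KRT7, KRT18, CLDN4 and ESRP1.

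Estrogen-responsive genes held 5 of 13, namely CCND1, MYC (7375 and 7358 bp), the retinoic acid receptor gene RARA (6200 and 6854 bp), the secreted glycoprotein gene STC2 (4299 and 4469 bp) and GREB1 (4174 and 4147 bp), a cofactor of the estrogen receptor. The MANE Select starts of CCND1, MYC and STC2 were in the regions, and those of RARA and GREB1 were not. Among the 16 luminal transcription factors, of which 15 were open at a start, ELF3, an epithelial ETS factor, was the single gene with a start in a very wide region, with intervals of 12316 and 7395 bp. SPDEF, another epithelial ETS factor, had no start in such a region, but its gene was overlapped by a pair of them. Their intervals were 5270 and 5381 bp, with 100% of the bases in the gene, and 5259 and 5226 bp, with 51.6%. The widest region over a start was 2597 and 2578 bp for FOXA1, 1618 and 1616 bp for GATA3, and 1644 and 1656 bp for ESR1. Each of these 3 genes had nearly the same width in both replicates.

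Housekeeping genes held 1 of 18, the cytoskeletal actin gene ACTB (14980 and 9112 bp), and chromatin regulators 1 of 20, the bromodomain gene BRD2 (6341 and 7640 bp). The widest ACTB interval of replicate 2 did not reach the MANE Select start of the gene, whereas that of replicate 1 did. Among the 12 long noncoding RNA genes, NEAT1 (10334 and 10387 bp), the scaffold RNA of paraspeckles, and MALAT1 (10018 and 9756 bp), an abundant nuclear RNA, were covered. HOX cluster genes held 0 of 39, of which 13 were open, and blood, endothelial, and basal and mesenchymal markers each held 0. The share over all autosomal protein-coding genes was 1.23%, so 0 in lists this short is near that share. It covers protein-coding genes only and gives no background for the long noncoding RNA genes. Over all protein-coding genes with an open start the widest region had a median of 1087 bp, against 4106 bp over the immediate-early genes, 4324 bp over the keratin and junction genes and 1282 bp over the housekeeping genes.

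**Figure D3:**
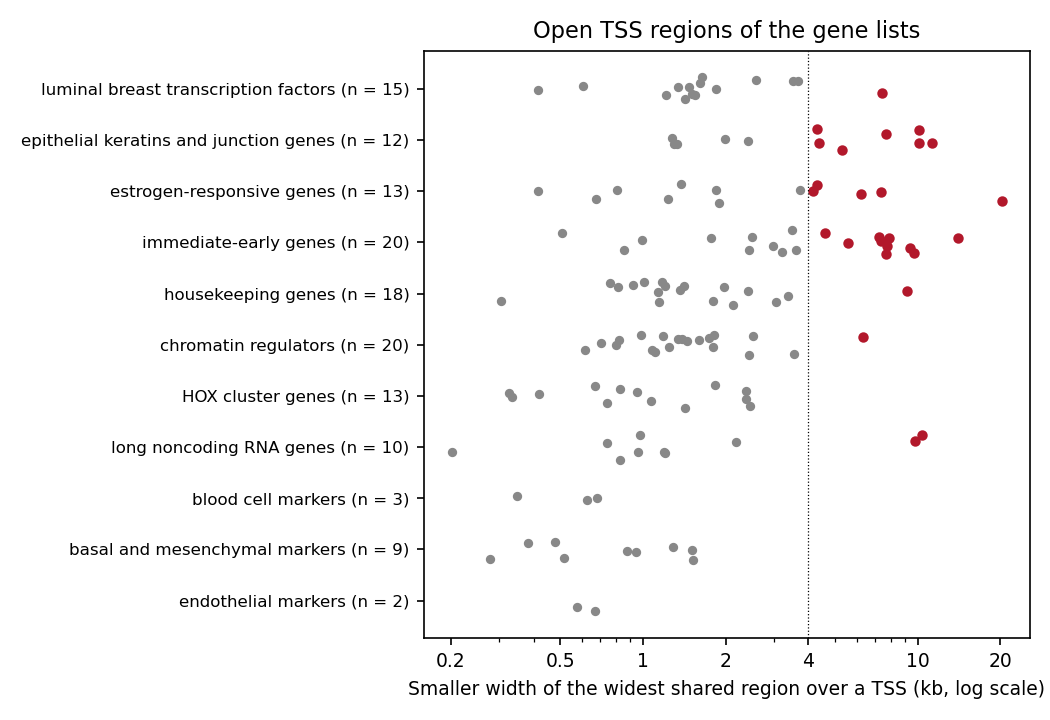
Smaller of the replicate widths of the widest shared region over a start of each gene, in kb on a log axis, by gene list, for genes open in both replicates; red points are genes with a start in a very wide region and the dotted line marks 4 kb. The immediate-early list has 10 of 20 genes to the right of the line and the HOX list has 0 of 13 open genes there. Of all autosomal protein-coding genes with an open start, 1.67% had a start in a very wide region, so the HOX count is near that share.

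No TSS of a protein-coding gene lay in 71 regions, of which 23 held a start of a noncoding gene and 48 held none. Their nearest protein-coding start was a median of 6558 bp from the edge, with 28 farther than 10 kb and 6 farther than 100 kb. Of the 48, 33 touched the body of a protein-coding gene. The widest lay 130135 bp from the nearest start of MYC, at chr8:127869208-127880410 in hg38, with intervals of 11203 and 10845 bp. The second lay 122291 bp from the nearest CCND1 start, at chr11:69509433-69518865, with intervals of 8375 and 9289 bp, and is the first of the CpG-poor stretches printed above. Regions followed inside CFL1 (7628 and 7460 bp), which encodes the actin-severing protein cofilin, inside QSOX1 (7304 and 7746 bp), which encodes a thiol oxidase, near NRBP2 (7243 and 10440 bp) and near PIM3 (7034 and 10329 bp), a kinase gene. The CFL1 region lay in the full annotated gene, 3083 bp downstream of its MANE Select start. That transcript spans 3508 bp, so most of the region, with the printed stretch, lay past its end.

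The signal in the regions was high compared with other peaks and varied widely among them. Peak height comes from the same peak calls as width and is given as a description. Fold enrichment, the pileup at the summit over the background, had a median of 109.5 in replicate 1 and 113.2 in replicate 2, against 77.5 and 78.7 over wide regions and 9.66 and 9.95 over narrower ones. The range was 11.5 to 326.7 and 10.8 to 333.9, and no very wide region was under the median of all peaks in its replicate. The Spearman coefficient over the 255 regions, which share 2 libraries, was 0.980 between the fold enrichments of the replicates and 0.173 between width and fold enrichment. The highest value was over QSOX1, at 326.7 and 333.9. CCND1 had 257.5 and 258.1, which correspond to calculated summit pileups of 1118 (95% Poisson interval 1053 to 1186) and 1166 (1100 to 1235). TPM4, the widest, had 84.2 and 88.2. The intervals cover counting error only and overlap between replicates for CCND1.

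CpG content over the whole very wide promoter regions was lower than over shorter ones, and at the gene start the comparison depended on which start was taken. The observed to expected CpG ratio had a median of 0.429 over the 184 promoter regions, against 0.655 over 1352 wide and 0.669 over 16402 narrower promoter regions. In the 500 bp around the annotated start nearest the midpoint of these same regions the medians were 0.450, 0.813 and 0.732, with a GC content of 64.9%, 69.2% and 63.6%. In the 133, 1091 and 10183 regions that held a MANE Select start, the medians around that start were 0.861, 0.868 and 0.840, with a GC content of 72.0%, 71.6% and 67.6%. In the 71 regions without a protein-coding start the ratio was 0.256, beside 0.253 for wide and 0.183 for narrower regions of that kind. Over all 255 regions the ratio was 0.374 and the GC content 58.0%. The lowest ratio, 0.121, was in NECTIN4, a cell adhesion gene, and the highest, 0.849, over ING1, a chromatin reader gene.

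A CpG island, taken as 200 bp with at least 50% GC and a ratio of at least 0.6, lay in 223 regions (87.5%), against 79.6% of wide and 11.6% of narrower regions. Longer regions offer more windows, and in the central 500 bp alone the shares were 36.5%, 56.8% and 11.9%. Islands covered a median of 25.9% of the region. They covered under 10% of 63 regions and more than 50% of 55. The hexamer GGGCGG, the GC box bound by Sp1-type factors, was searched on both strands in the central 500 bp of each region, a window of the same length in every class. It was present in 44.6% of very wide promoter regions, 71.2% of wide and 63.4% of narrower promoter regions. The AP-1 motif TGANTCA was present in 9.78%, 6.51% and 9.60% of the same windows. In regions without a protein-coding start these were 14.1%, 15.6% and 19.8%. The central window was not placed on a gene start. A midpoint was within 1 kb of a protein-coding start in 43.9% of very wide, 58.5% of wide and 12.8% of narrower regions. The central shares of islands and motifs therefore do not describe the sequence at the start.

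**Figure D4:**
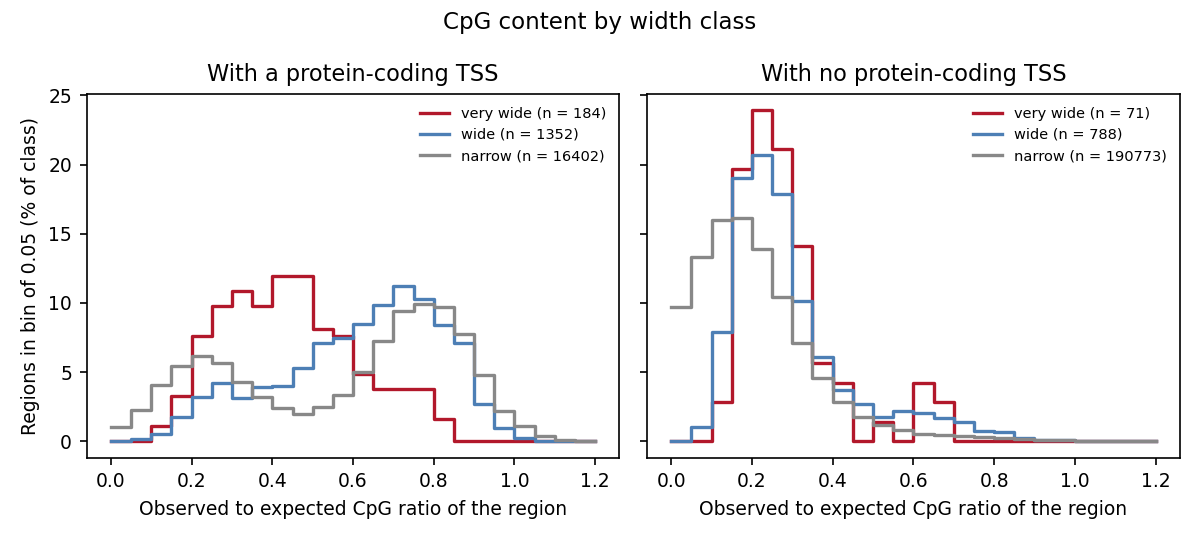
Distribution of the observed to expected CpG ratio over the whole region, as the percent of regions of a class in bins of 0.05, for very wide (red), wide (2000 to 3999 bp, blue) and narrower regions (grey), with a protein-coding TSS (left) and without (right). The very wide promoter regions have a median of 0.429, left of the medians of 0.655 and 0.669 of the other classes, while the right panel shows medians of 0.256, 0.253 and 0.183.

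Assembly gaps, here runs of at least 100 undetermined bases in hg38, were on median nearer to very wide regions than to shorter ones. Few very wide regions lay within 100 kb of a gap, and none contained undetermined bases. The distance to the nearest gap had a median of 5.53 Mb, against 8.17 Mb for wide and 10.4 Mb for narrower regions. A gap was within 1 Mb of 36 regions (14.1%), against 10.0% of wide and 7.68% of narrower regions. It was within 100 kb of 4 (1.57%), against 0.935% of wide and 0.618% of narrower regions. The nearest were the region over PIM3, 985 bp from a gap of 1500 bp on chromosome 22, and the second region near PIM3, at 16966 bp from it. P4HB, encoding a protein disulfide isomerase, and ARHGDIA were 41278 and 66204 bp from a gap of 416 bp on chromosome 17. SOX12, a SOX transcription factor gene, was 257193 bp from a gap on chromosome 20. Chromosome ends carry gaps of their own. An end was within 3 Mb of 65 regions (25.5%), 13.8% of wide regions and 7.01% of narrower ones.

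Along the genome many of the regions lay near another of the set. Chromosome 1 held 43, chromosome 8 held 29, and chromosome 21 held 0. Per 1000 shared regions the values were 2.59 on chromosome 8, 2.38 on chromosome 16 and 2.31 on chromosome 19, beside 1.22 over all autosomes. Another very wide region was within 50 kb of 109 of the 255. Other shared regions of any width within 50 kb numbered a median of 31, against 25 for wide and 13 for narrower regions. Whether very wide regions group more than wide regions was not tested. When very wide regions less than 500 kb apart were linked, 23 groups of at least 3 held 116 regions. The largest group was 20 regions within 1.26 Mb near the long-arm end of chromosome 8 (chr8:143274102-144529335), among them EPPK1, a pair over PLEC, MAPK15, PUF60, DGAT1, RECQL4 and LRRC14. The other promoter regions in that stretch had median fold enrichments of 60.7 and 68.5, above the 38.9 and 40.02 over all promoter regions outside the set, and the nonpromoter regions there had 6.21 and 6.19 against 8.97 and 9.29. The second group was 10 regions within 460 kb on chromosome 11 (chr11:65414546-65874484), from NEAT1 and MALAT1 to CFL1 and EFEMP2, and there the other promoter regions had 23.01 and 19.5. Groups of 7 lay around FGFR4 and PDLIM7 on chromosome 5 and around LMNA and MEF2D on chromosome 1. MYC and 3 regions 118 to 130 kb from it formed a group on chromosome 8. The nearest of the 3 held a start of the long noncoding RNA gene PVT1. The copy number of these stretches was not analysed here, and its part in the widths was not tested.

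**Figure D5:**
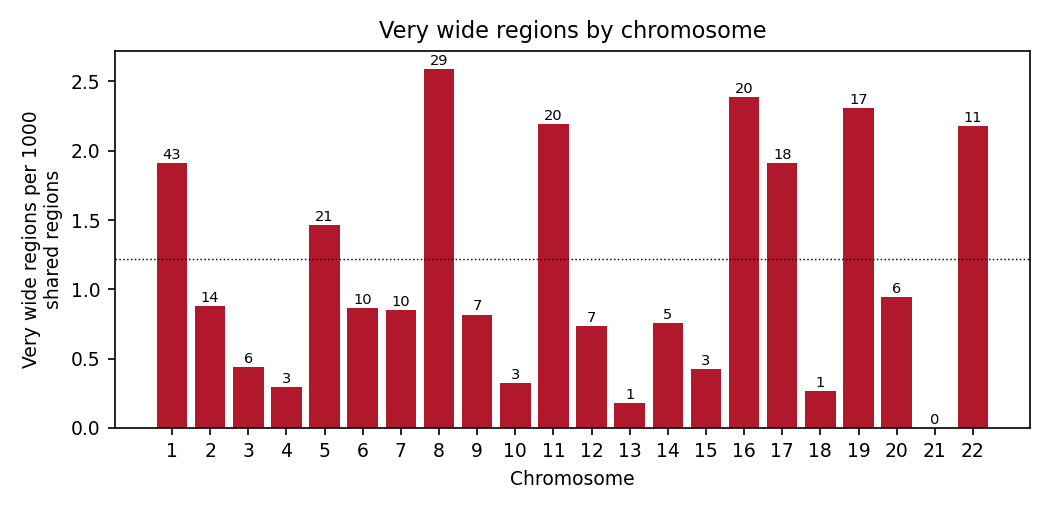
Very wide regions per 1000 shared regions on each autosome (bars), with their number above each bar; the dotted line marks the value over all autosomes, 1.22. Chromosome 8 has 2.59 (29 regions) and chromosome 21 has 0.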

How the data were processed

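CAMA-1 ATAC-seq peak lists of 2 biological replicates were analysed. Per the labels and the submitters' processing notes, the authors trimmed reads with Trim Galore 0.6.5, aligned them to hg38 with Bowtie2 2.3.5.1 and called peaks in each replicate with MACS2 2.2.6. The deposited lists give for each peak a score (10 times the −log10 q, as a whole number), a fold enrichment (ratio of pileup to background), a −log10 p and a −log10 q. The peak lists hold no read totals, and totals stated elsewhere by the study were not used here. The fold enrichments of a replicate were whole multiples of 1 step (largest misfit 8.13e-05 of a step), which gave summit pileups over a uniform background of 3.35 and 3.52, so no local background entered these values. Whether a unit of pileup was a fragment or a read was not stated. The Poisson intervals treat each unit as 1 count.

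Intervals of the replicates were merged at 1 bp of overlap, and regions with the widest interval of at least 4000 bp in both replicates were kept. Genes came from GENCODE release 44, sequence and gaps from hg38. CpG islands and ratios were computed with Python 3.11.15, pandas 2.3.3 and pysam 0.24.0. The functions were tested on simulated data, where all 200 wide regions of 2000 were recovered. No test was run over regions, which are not replicates, and a single condition was present. Regions were named by the protein-coding gene whose start is nearest the midpoint. Those named are the 12 widest with a protein-coding start, the 6 widest with no start, the 3 on either side of the limit, the 5 nearest a gap and the list genes with a start in a region; BGLAP, the histone stretch, the SPDEF regions, NECTIN4, ING1, the wide regions whose replicate intervals overlapped little, and the members of groups were chosen after their values were seen, as were other complete genes. The regions, gene lists and classes were chosen with earlier results of these data known. Alternatives varied the width limit, the replicate used, the definition of a start, an island and a gap, and the stretch examined. The MANE Select starts were added after the data were seen. Regions on chromosomes X and Y were left out by the rule.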

Additional observations from a re-analysis of the deposited data

How the results depend on the processing

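Of 49 alternatives over 8 results, 15 stayed within the limit set for each result, which was the spread between replicates for shares and medians and 1.5 times the value for the number of regions. The other 34 moved by more. For shares and medians, the spread came from the values with either replicate left out, and these values are also among the alternatives. Whether those alternatives stayed within the limit is therefore not independent of it. The 8 results were counts, shares and medians of the very wide regions alone, so their comparisons with wide regions were not among the alternatives. Against wide regions, the order of the promoter share and of the island share depended on the measure, as given above. The causes were not tested. With a width limit of 3000 bp the number of regions was 639, the share with a protein-coding start 68.1%, the CpG ratio 0.405, the GC content 58.9%, the share with an island 85.0%, the share within 1 Mb of a gap 12.5%, the median fold enrichment (mean of replicates, 111.4 as reported) 98.4 and the share reaching farther downstream of the nearest start (65.8% as reported over 184 regions) 61.4%. With 5000 bp these were 146, 77.4%, 57.4% GC, 91.1%, 18.5%, 119.9 and 68.1%. Width of the merged region in place of the widest interval gave 509 regions. Without either replicate the number rose from 255 to between 355 and 357, the promoter share 67.5% to 71.5%, the CpG ratio 0.359 to 0.387, the GC content 58.2% to 58.3%, the island share 87.4% to 87.9%, the share near a gap 13.5% to 14.0%, the fold enrichment 102.4 to 105.2 and the downstream share 63.9% to 66.5%.

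The share with a start was 48.6% with the most upstream start of each gene, 52.2% with the MANE Select start and 81.2% over genes of all kinds, and 83.9% reached farther downstream of the most upstream start. The CpG ratio was 0.304 in the central 500 bp and 0.861 around the MANE Select start, and the GC content was 59.4% in the central 500 bp and 58.5% in the stretch shared by the replicates. A stricter island gave 65.5%, gaps of at least 10000 bases 13.3% and a limit of 100 kb 1.57%. No paired analysis was possible because a single group was sampled. The peak lists hold no read totals, and widths were not compared at equal depth.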

Other observations

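A few very wide regions had low summit fold enrichments beside the rest of the set, though above the median of all peaks. Fold enrichment was under 30 in both replicates in 14 of the 255, a limit set after the values were seen. The widest was over the body of FASN, which encodes fatty acid synthase, with intervals of 9787 and 9973 bp and fold enrichments of 17.5 and 19.02. A separate region at the end of the same gene had 68.3 and 65.0. Others were a region over the start of PYCARD (8236 and 8549 bp, fold enrichments of 21.4 and 29.6), one inside WDR1 (6209 and 5730 bp, 22.8 and 17.2) and one over part of ATF3 (4980 and 5659 bp, 25.5 and 24.99). A protein-coding start lay in 8 of the 14. Exons covered a median of 31.3% of these regions, against 23.9% over all 255.

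The X chromosome was outside the rule. It held 4 shared regions that reached 4000 bp in both replicates, of which a pair lay over FLNA, encoding the actin crosslinker filamin A (13901 and 13797 bp, and 7826 and 14634 bp). The others were over TSC22D3, a glucocorticoid-induced gene (5703 and 5714 bp), and USP11, a deubiquitinase gene (5741 and 4603 bp).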
